A study of Arabidopsis thaliana with 6 samples.

Results

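Papain-like cysteine proteases cut proteins in vacuoles, cell walls and dying cells of plants, and vacuolar processing enzymes (VPEs) are a separate family of cysteine proteases that cut after asparagine or aspartate residues and so mature vacuolar proteins. Here 35 Arabidopsis thaliana genes were examined, of 32884 listed in each table: 31 papain-like protease genes and the 4 VPE genes. The genes were chosen by family membership and locus identifier, with earlier results of these data known. Their shares beside those of all genes are therefore no independent test. The samples were seeds of Col-0, the wild-type accession, and of hda15-1, a mutant in the Col-0 background of HDA15, a histone deacetylase gene. There were 3 libraries of each genotype. All seeds took up water for 1 h, were given a far-red pulse of 5 min with a fluence rate of 3.82 µmol m-2 s-1 and then stayed in darkness at 22 °C for 12 h. Far-red light turns phytochrome to its inactive form, and the series concerns HDA15 and the transcription factor PIF1 as repressors of germination in the dark. RNA came from whole seeds, so fewer cells of a type and less RNA per cell cannot be told apart.

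Both families are made as inactive precursors that travel through the secretory pathway and lose an inhibitory stretch when they mature. In seeds, VPEs process storage proteins as these accumulate, and cysteine proteases break the reserves down once germination proceeds. Other members act in cell death: KDEL-tailed endopeptidases (the CEP group) in collapsing tissues, xylem cysteine peptidases (XCP) in vessel cells, and SAG12 in ageing leaves. Cystatins are small proteins that inhibit the papain-like enzymes.

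Levels are given as FPKM, fragments per kilobase, scaled to the mapped reads, so they can be set side by side between genes. HDA15 itself was at 0.338, 0.651 and 0.417 FPKM in the libraries labelled hda15-1, against 16.1, 13.0 and 14.8 FPKM in wild type. Read totals are unknown, so the size of 1 fragment was estimated from the lowest values. The first step put 1 fragment in a transcript of 1 kb at 0.0906 to 0.117 FPKM, and relative depths lay between 0.942 and 1.22 of wild type 1. Seed markers were abundant: 7 embryo and reserve genes summed to 45702 to 77925 FPKM in wild type and 53705 to 84988 FPKM in hda15-1. Of 5 seed coat markers BAN, STK and DFR were listed at 0 everywhere. Of 6 xylem markers KNAT7 and LAC11 were, and the xylem list summed to at most 0.499 FPKM in a library. Of the 4 endosperm markers, EPR1 was high in every library, from 6644 to 11272 FPKM, and MAN7 lay between 13.4 and 31.1 FPKM. ALE1 reached at most 0.0307 FPKM, and RGE1 was listed at 0. The 5 leaf photosynthesis markers summed to 371.4 to 481.7 FPKM in wild type and 467.5 to 640.0 FPKM in hda15-1, and the 3 markers of ageing leaves to 3.2 to 4.41 and 2.35 to 5.28 FPKM. Most of the photosynthesis sum was RBCS1A, at 349.6 to 614.8 FPKM over the libraries. RCA was at 20.1 to 24.4 FPKM, and RBCS3B, CAB2 and CAB3 stayed at or below 3.69 FPKM. The 2 wild-type libraries numbered 2 and 3 correlated at r = 0.980 across genes on the log2 scale. Wild type 1 correlated with them at 0.955, and hda15-1 1 and 3 with each other at 0.937. Pairs across genotypes ran from 0.945 to 0.973, and wild type 1 correlated with hda15-1 2 and 3 at 0.959. The libraries thus did not group by genotype on this measure. Genes are not independent replicates.

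The sequences show how alike the members are at their working centre. Each line holds 45 coding bases read on the gene's own strand, from the TAIR10.1 genome, with the codon of the active-site cysteine in capitals. The sets shown are the members with a mean of at least 1 FPKM, except RD19B, together with the near-silent relatives AT4G11320 and CTB1.
AT4G11310: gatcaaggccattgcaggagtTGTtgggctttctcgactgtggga
AT4G11320: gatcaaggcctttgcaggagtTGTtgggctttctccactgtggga
CP1: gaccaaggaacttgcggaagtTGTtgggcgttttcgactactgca
RD19A: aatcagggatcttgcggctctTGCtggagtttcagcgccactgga
RD19D: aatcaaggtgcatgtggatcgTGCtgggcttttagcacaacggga
AALP: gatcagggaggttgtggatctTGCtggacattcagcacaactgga
ALP2: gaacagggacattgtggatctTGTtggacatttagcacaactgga
CTB1: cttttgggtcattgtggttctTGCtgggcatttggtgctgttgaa
CTB2: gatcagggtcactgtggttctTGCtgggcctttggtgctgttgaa
CTB3: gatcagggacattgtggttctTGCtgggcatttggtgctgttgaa
ALPHA-VPE: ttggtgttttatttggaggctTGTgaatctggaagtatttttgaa
BETA-VPE: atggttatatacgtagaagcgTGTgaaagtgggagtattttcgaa
GAMMA-VPE: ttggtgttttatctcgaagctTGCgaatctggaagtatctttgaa
DELTA-VPE: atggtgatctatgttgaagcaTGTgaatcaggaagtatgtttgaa
In the papain-like segments shown, the TGT or TGC codon is followed by tgg, and in the VPE segments by gaa. AT4G11310 and AT4G11320 differed at 2 of the 45 bases and CTB2 and CTB3 at 3, while CP1 differed from AT4G11310 at 12 and RD19A from RD19D at 13. A cysteine codon in such a context was found once in 34 of the 35 members, all but AT1G29110. In 33 of these 34 an intron interrupted the segment in the genome, the exception being CTB1. The CP1 segment lay within chr4:17375473-17375697 on the minus strand, and that of AT4G11310 within chr4:6884053-6884549 on the plus strand.

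Papain-like transcripts in these seeds came mostly from a handful of genes. Of the 35 members, 6 had a mean above 100 FPKM over the 6 libraries, 7 lay between 1 and 100 FPKM, 12 lay above 0 and under 1 FPKM, and 10 were listed at 0 in every library. A listed 0 can be a failed estimate in such tables, so it is given here as listed. AT4G11310 took 60.7 ± 3.66% (SD, n = 3) of the summed papain-like FPKM in wild type and 61.4 ± 4.28% in hda15-1. RD19D took 25.9 ± 2.12% in wild type and 25.4 ± 6.62% in hda15-1. The summed level was 5013 ± 1046 FPKM for wild type and 5617 ± 1280 FPKM for hda15-1 (exact permutation test, two-sided, p = 0.6, where 0.1 is the smallest possible for 3 against 3).

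**Figure D1:**
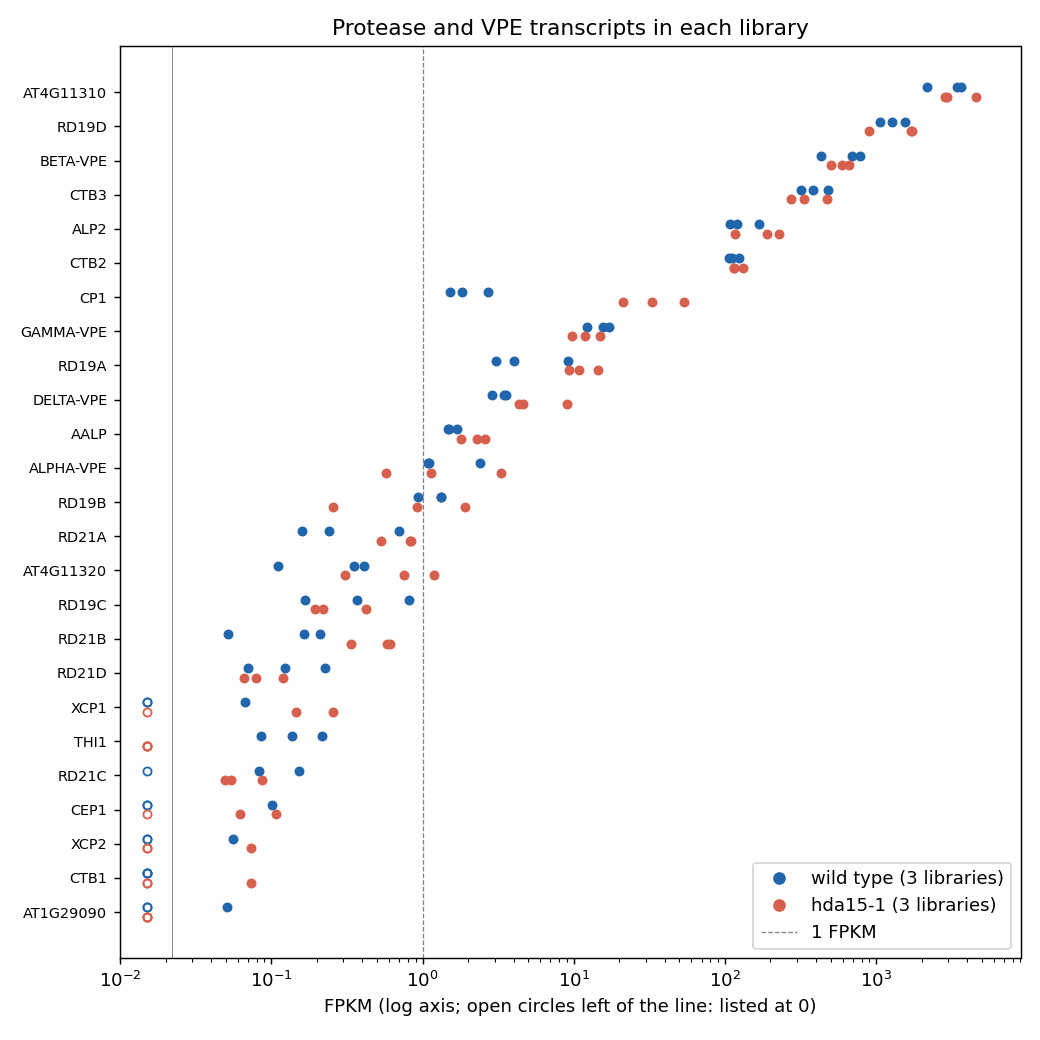
FPKM of the 25 members above 0 in at least 1 library, on a log axis, with 1 point per library and genotype by colour. Filled points run from about 1 fragment to 4599.8 FPKM, and CP1 is the member whose wild-type and hda15-1 points lie farthest apart.

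In order of mean level the list ran AT4G11310, RD19D, BETA-VPE, CTB3, ALP2, CTB2, CP1, GAMMA-VPE, RD19A, DELTA-VPE, AALP, ALPHA-VPE and RD19B. The ranges over libraries did not overlap between AT4G11310 and RD19D, between RD19D and BETA-VPE, between CTB3 and ALP2, between CTB2 and CP1, or between DELTA-VPE and AALP. The other neighbours in this order overlapped. BETA-VPE lay above CTB3 in 6 of 6 libraries all the same, and ALP2 above CTB2 in 5. CP1 took its place through hda15-1 alone: it lay above GAMMA-VPE in 3 of 6 libraries.

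The comparison of genotypes asked which of these transcripts differ in hda15-1 seeds after the far-red pulse and 12 h in darkness. How far germination had gone in each genotype is not given in the labels. CP1, a papain-type protease gene, was far higher in hda15-1, and no other member passed the test. Differences were tested in limma on log2(FPKM + 1) across the 15045 genes whose mean reached 1 FPKM, with Benjamini-Hochberg adjustment over all of them and a threshold of 0.05. Of the 35 members 13 were tested, 9 papain-like and 4 VPE. Of these, 1 was higher, where 0.199% of all genes tested were, and 0 were lower, where 0.0199% were. At an unadjusted p under 0.05 limma gave 3 of the 13 (CP1, RD19A and DELTA-VPE), where 4.28% of all genes tested fell under it. In 4 of the 13 every hda15-1 library lay above every wild-type library (CP1, RD19A, DELTA-VPE and AALP), as held for 5.78% of all genes tested, and in 0 the reverse, as held for 3.43%. The median log2 fold change of the 13 was 0.11 and that of all genes tested 0.02. Of the 13, 8 were above 0, as were 54.4% of all genes tested.

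**Figure D2:**
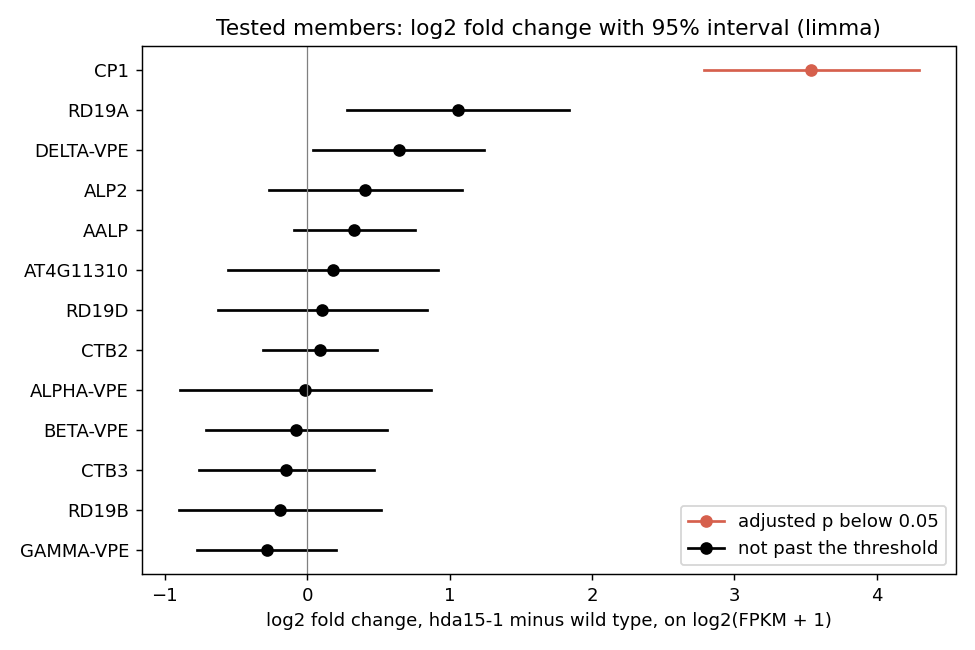
Log2 fold change (hda15-1 relative to wild type, from log2(FPKM + 1)) of the 13 tested members, with 95% intervals from limma. The interval of CP1 runs from 2.79 to 4.29, and those of RD19A and DELTA-VPE are the only others that lie above 0 throughout.

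CP1 (AT4G36880, also called RDL1) lies on chromosome 4 from 17374454 to 17376279 on the minus strand. Its level was 2.72, 1.51 and 1.81 FPKM in the wild-type libraries, against 53.9, 33.02 and 21.1 FPKM in those of hda15-1. The groups lay well apart, with the lowest mutant library above the highest wild-type one. The means were 2.01 ± 0.628 and 36.01 ± 16.6 FPKM (SD, n = 3 each), 17.9 times higher in hda15-1. On the log2(FPKM + 1) scale the change was 3.54 ± 0.33 (SE; adjusted p = 6.42e-03, limma). By size it ranked 5 among the 30 genes that rose, and by p it ranked 10 among the 15045 tested. By the estimated size of 1 fragment the wild-type values stood on about 24.5 to 36.2 fragments and the mutant ones on about 265.1 to 844.4. Without hda15-1 2 the adjusted p was 0.0514 in limma and the log2 fold change 3.55. Even in the mutant CP1 took only 0.702 ± 0.44% of the summed papain-like level, against 0.0434 ± 0.024% in wild type.

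The coding sequence of CP1 was closest to that of RD21B among the other members, at 68.3% identical aligned bases. No window of 36 or 50 bases of its transcript occurred in another gene's transcript, and no annotated gene overlapped it. Of its 3 relatives by family group only AT4G11310 reached the mean needed for the test, and it did not pass. In aligned coding bases CP1 was 62.2% identical to AT4G11310, 61.8% to AT4G11320 and 65.3% to AT4G23520. The median over all papain-like pairs was 61.8%. AT4G11310 is annotated with CP1 as an alternative name, and it is a different gene, 91.1% identical to its neighbour AT4G11320. AT4G11310 was at 2162, 3424 and 3619.8 FPKM in the wild-type libraries, against 2865, 2948 and 4599.8 FPKM in those of hda15-1. The groups overlapped, with a log2 fold change of 0.18 ± 0.32 (SE) and a 95% interval from -0.56 to 0.92. AT4G23520, the remaining gene of this group, was listed at 0 in all 6 libraries.

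**Figure D3:**
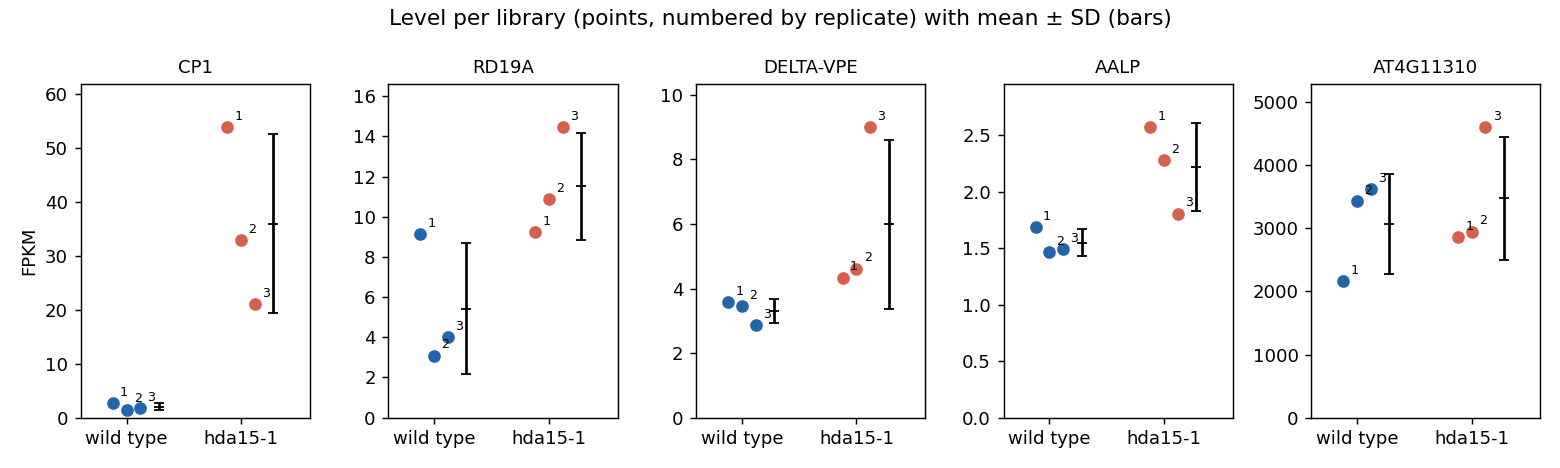
FPKM of 5 members in each library (points, numbered by replicate) with the mean and SD of each genotype (bars); each panel has its own axis from 0. CP1 rises from at most 2.72 FPKM in wild type to at least 21.1 FPKM in hda15-1, while AT4G11310 overlaps between genotypes.

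The 250 bases before the annotated start are shown for CP1, the member that rose, and for the neighbours AT4G11310 and AT4G11320, whose levels lie far apart. They come from the TAIR10.1 genome at chr4:17376280-17376529 on the minus strand, chr4:6883263-6883512 on the plus strand and chr4:6886916-6887165 on the plus strand. Capitals mark 4 searched motifs on both strands: CACGTG, the G-box that PIF1 and other factors bind; CACATG, a related E-box; CATGCA, the core of the RY element of seed genes; and TAACAAA, a gibberellin response element. The patterns were allowed to overlap.
CP1: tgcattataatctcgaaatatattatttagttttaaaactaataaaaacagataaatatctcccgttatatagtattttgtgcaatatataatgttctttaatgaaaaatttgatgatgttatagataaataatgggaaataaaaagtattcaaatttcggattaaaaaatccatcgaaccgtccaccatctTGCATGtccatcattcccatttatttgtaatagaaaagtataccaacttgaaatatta
AT4G11310: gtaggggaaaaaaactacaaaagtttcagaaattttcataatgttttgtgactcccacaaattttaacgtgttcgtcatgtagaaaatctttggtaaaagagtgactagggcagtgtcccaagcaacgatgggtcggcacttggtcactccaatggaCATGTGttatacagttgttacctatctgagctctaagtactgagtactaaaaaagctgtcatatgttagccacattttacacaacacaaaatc
AT4G11320: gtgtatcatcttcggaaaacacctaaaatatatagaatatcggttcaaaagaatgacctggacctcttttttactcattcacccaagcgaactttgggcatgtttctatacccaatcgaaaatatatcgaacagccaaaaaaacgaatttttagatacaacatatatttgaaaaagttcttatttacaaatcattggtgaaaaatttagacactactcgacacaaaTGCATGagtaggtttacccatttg
CP1 held one match, TGCATG, the reverse of the RY core, beginning at -58 from the start. AT4G11310 held one CATGTG, at -93, and AT4G11320 one TGCATG, at -24. Among the 27443 promoters of the annotation, 8.43% held the RY core, 6.49% the G-box, 11.1% CACATG and 16.1% TAACAAA. Of the 35 members 6 held the RY core, 2 the G-box, 5 CACATG and 4 TAACAAA. RD19D, high in both genotypes, held 3 RY cores and a G-box in its 250 bases. Matches also lay before genes listed at 0 in every library: a G-box in XBCP3 and an RY core in AT3G49340. BETA-VPE, at a mean of 611.8 FPKM, held no match. A match is a run of letters and not a shown binding site.

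Close relatives stood at very different levels. AT4G11310 and AT4G11320 lie on chromosome 4 with 1648 bp and 1 other gene between them. AT4G11320 was at 0.111, 0.352 and 0.408 FPKM in the wild-type libraries, against 0.754, 0.308 and 1.19 FPKM in those of hda15-1. The level of AT4G11310 was thus 3800 to 19451 times higher within a library. Of the windows of 50 bases in the transcript of AT4G11310, 1.06% also occurred in AT4G11320. AT4G11310 stood on about 27008 to 54145 fragments and AT4G11320 on about 2.4 to 23.9, so fragments that fit both could make up the whole level of AT4G11320, and how they were assigned is not given in the sources used here. AT4G11320 did not reach the mean needed for the test, and its groups overlapped.

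The cathepsin B group gave a second such pair. Cathepsin B proteases act redundantly in defence-related cell death and ageing leaves. CTB1 and CTB2 lie 168 bp apart on chromosome 1 and share 89.8% of aligned coding bases. CTB2 was at 106.1, 110.8 and 123.01 FPKM in the wild-type libraries, against 115.4, 115.1 and 131.1 FPKM in those of hda15-1. CTB1 was listed at 0 in 5 libraries and at 0.0732 FPKM, about 1 fragment, in hda15-1 2. CTB2 thus varied little, with a log2 fold change of 0.09 ± 0.17 (SE) and a 95% interval from -0.31 to 0.49. CTB3 (AT4G01610) was at 319.1, 478.5 and 384.3 FPKM in the wild-type libraries, against 469.8, 273.5 and 334.7 FPKM in those of hda15-1, with overlapping groups and a 95% interval from -0.76 to 0.47.

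**Figure D4:**
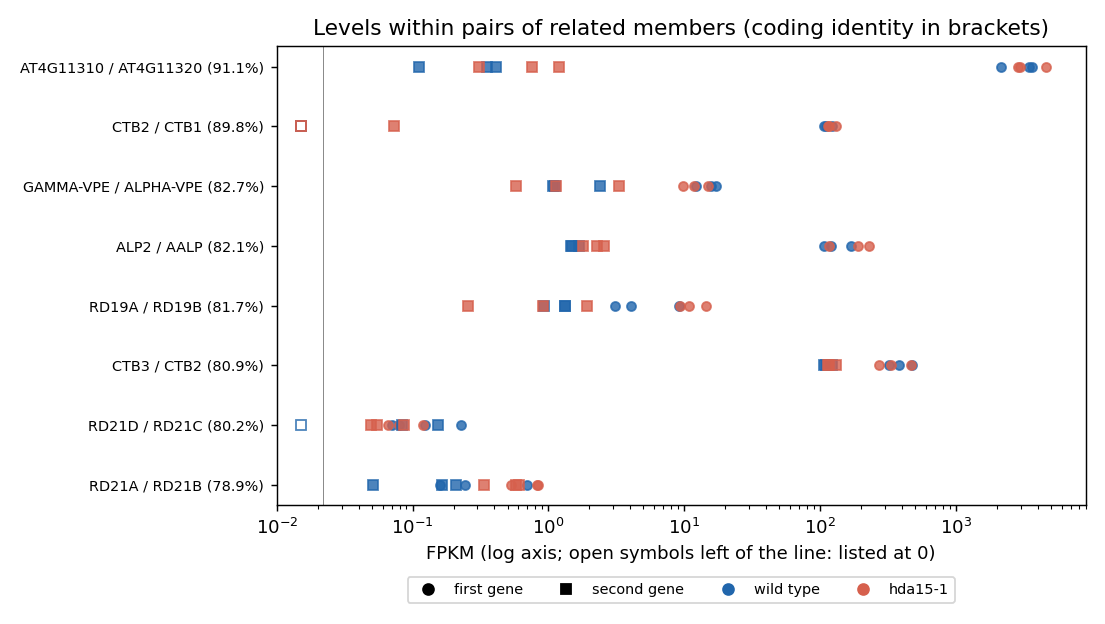
FPKM of both genes of 8 pairs of related members in each library on a log axis (circles for the first gene, squares for the second), with the identity of the aligned coding bases in brackets. Among pairs with both genes above 0 in every library, AT4G11310 and AT4G11320, at 91.1%, are farthest apart; CTB1 is listed at 0 in 5 libraries, and RD21A and RD21B, at 78.9%, differ by a factor of 0.963 to 13.5.

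The RD19 group, named after a drought-responsive gene, held a very high and 3 low members. RD19A (AT4G39090), whose protein is also known as a target of a bacterial wilt effector, was at 9.15, 3.08 and 4.02 FPKM in the wild-type libraries, against 9.25, 10.9 and 14.5 FPKM in those of hda15-1. The groups did not overlap, but wild type 1 at 9.15 FPKM came close to hda15-1 1 at 9.25 FPKM. The means were 5.42 ± 3.27 and 11.5 ± 2.66 FPKM (SD, n = 3 each), and the log2 fold change of 1.06 ± 0.34 (SE) did not pass the test (adjusted p = 0.834, limma). Among the 4 libraries numbered 2 and 3 it was 1.58 and did pass (adjusted p = 0.0369, limma). Without wild type 1 alone it was 1.45 (adjusted p = 0.137, limma). The position of wild type 1 in this gene was not tested further.

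RD19D (AT3G54940) lies at positions 20354351 to 20356363 of chromosome 3. Its level was 1053, 1275 and 1551 FPKM in the wild-type libraries, against 893.7, 1689.8 and 1721 FPKM in those of hda15-1. Its groups overlapped, with a 95% interval of the log2 fold change from -0.63 to 0.84. RD19B was at 0.934, 1.32 and 1.33 FPKM in the wild-type libraries, against 0.256, 1.91 and 0.917 FPKM in those of hda15-1. The mutant libraries thus lay on both sides of the wild-type ones. RD19B shares 107 bp with AT2G21440 on the same strand, a gene at 25.1 FPKM on average, and fragments in those bases cannot be told apart. RD19C stayed between 0.166 and 0.8104 FPKM and was not tested.

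The aleurain group holds vacuolar proteases that resemble animal cathepsin H, with AALP a common marker of the lytic vacuole. ALP2 (AT3G45310) made up most of it, at 168.2, 120.4 and 107.2 FPKM in the wild-type libraries, against 190.2, 117.2 and 228.8 FPKM in those of hda15-1. Its groups overlapped, with a log2 fold change of 0.41 ± 0.29 (SE) and an interval from -0.27 to 1.08. AALP (AT5G60360) was at 1.69, 1.47 and 1.49 FPKM in the wild-type libraries, against 2.57, 2.28 and 1.81 FPKM in those of hda15-1. Every mutant library of AALP was higher, yet the log2 fold change of 0.33 ± 0.18 (SE) did not pass (adjusted p = 1.000, limma). Within a library ALP2 was 51.4 to 126.6 times higher than AALP, with 82.1% of their aligned coding bases identical.

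Of the VPE genes, BETA-VPE, the seed-type enzyme that processes storage proteins, held nearly the whole pool. BETA-VPE (AT1G62710, positions 23223874 to 23226983 of chromosome 1) was at 428.9, 695.4 and 783.7 FPKM in the wild-type libraries, against 503.7, 661.9 and 596.9 FPKM in those of hda15-1. It took 96.8 ± 0.782% of the VPE level in wild type and 96.7 ± 0.904% in hda15-1 (exact permutation test, two-sided, p = 0.8). The log2 fold change of BETA-VPE was -0.08 ± 0.28 (SE) on an interval from -0.71 to 0.56.

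GAMMA-VPE, a vegetative enzyme with a role in cell death, was at 12.2, 15.6 and 17.1 FPKM in the wild-type libraries, against 14.97, 11.8 and 9.73 FPKM in those of hda15-1, with overlapping groups. ALPHA-VPE, the other vegetative enzyme, was at 2.39, 1.09 and 1.11 FPKM in the wild-type libraries, against 3.31, 0.575 and 1.14 FPKM in those of hda15-1. Both libraries numbered 1 held the higher ALPHA-VPE values of their genotype, and the ranges overlapped widely. GAMMA-VPE shared 82.7% of aligned coding bases with ALPHA-VPE. BETA-VPE and DELTA-VPE were at most 65.3% identical to any other VPE.

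DELTA-VPE (AT3G20210), known for the death of cell layers in the young seed coat, was at 3.57, 3.46 and 2.87 FPKM in the wild-type libraries, against 4.34, 4.62 and 8.997 FPKM in those of hda15-1. All mutant libraries were higher, with hda15-1 3 well above the other 2. The log2 fold change of 0.64 ± 0.26 (SE) did not pass the test (adjusted p = 1.000, limma), and without hda15-1 3 it was 0.35. The 5 seed coat markers together reached at most 0.581 FPKM in a wild-type library and 1.12 FPKM in a mutant one, 3 of them being listed at 0, and their part in the values of DELTA-VPE was not tested. DELTA-VPE also overlaps a non-coding RNA gene, AT3G03955, by 220 bp on the other strand. That gene had a mean of 2.53 FPKM, and 10.03% of the DELTA-VPE windows of 50 bases also lie in it. Whether counting used strand is not given in the sources used here.

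The 22 remaining members, those under a mean of 1 FPKM, rest on few fragments. The RD21 group, which includes the major drought-responsive leaf protease RD21A and carries a granulin domain in some members, summed to 0.97, 0.635 and 0.574 FPKM in the wild-type libraries, against 1.64, 1.53 and 1.001 FPKM in those of hda15-1. RD21B was at 0.0514, 0.166 and 0.21 FPKM in the wild-type libraries, against 0.607, 0.579 and 0.335 FPKM in those of hda15-1. Its mutant libraries all lay above the wild-type ones, as held for 5.83% of the 21626 genes in a fit without a minimum mean. The values stand on about 1 to 4.7 fragments in wild type and 5.9 to 13.3 in the mutant. In that fit its log2 fold change was 0.40 and it did not pass (adjusted p = 0.473, limma), where 0.12% of genes did. RD21A was at 0.694, 0.159 and 0.241 FPKM in the wild-type libraries, against 0.823, 0.837 and 0.533 FPKM in those of hda15-1, with overlapping groups. RD21C and RD21D, neighbours on chromosome 3 with 272 bp between them, stayed at or below 0.227 FPKM.

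Members of the SAG12, CEP, XCP and THI1 groups were barely seen. SAG12, CEP2 and CEP3 were listed at 0 in every library, as was XBCP3. CEP1, the endopeptidase of the anther tapetum, reached 0.108 FPKM, and the vessel proteases XCP1 and XCP2 reached 0.256 and 0.0739 FPKM. Of the 6 SAG12-like genes, 5 were listed at 0 throughout and AT1G29090 reached 0.0513 FPKM in wild type 3, about 0.8 fragments. THI1 was at 0.0861, 0.137 and 0.217 FPKM in wild type while each hda15-1 library listed it at 0, and 3.86% of the same 21626 genes had all mutant libraries below the wild-type ones. These THI1 values stand on about 0.8 to 2.5 fragments, so no fold is given, and it did not pass in that fit (adjusted p = 0.66, limma). The whole of THI1 is covered by AT1G06265 on the other strand, at a mean of 1.29 FPKM. At this depth these genes could not be compared between genotypes.

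Inhibitors, carriers and substrates of the proteases included abundant transcripts. Of the tested cystatins, other inhibitors, sorting receptors, aspartic proteases and storage protein genes, 0 passed in limma, where 0.199% of all genes tested were higher and 0.0199% lower, and 0 had an unadjusted p under 0.05, where 4.28% of all genes did. A share of 0 among so few genes is near that background. The 7 cystatins, all tested, summed to between 2563 and 3219 FPKM per wild-type library, and between 2266 and 3160 FPKM per hda15-1 library, with a median log2 fold change of -0.0997 and 3 above 0. CYS2, the highest, was at 1905 ± 278.2 FPKM for wild type and 1590.01 ± 169.2 FPKM for hda15-1, and AT5G47550 at 266.05 ± 49.99 and 380.2 ± 131.1 FPKM (SD, n = 3 each). The 3 tested vacuolar sorting receptors, which carry such enzymes to the vacuole, had a median log2 fold change of 0.14. Of the 7 listed receptors, 3 were at 0 in every library and another untested one reached at most 0.0688 FPKM. VSR1 was at 155.5 ± 43.9 FPKM for wild type and 172.6 ± 19.6 FPKM for hda15-1 (SD, n = 3 each). Of the aspartic proteases of the vacuole, APA1 was at 889.4 ± 216.2 FPKM for wild type and 1012 ± 40.5 FPKM for hda15-1. The untested gene of that list reached at most 0.147 FPKM. Of the 9 storage protein genes, whose products BETA-VPE cleaves, 8 had a log2 fold change above 0, where 54.4% of all genes tested did, and 0 passed. The median was 0.29, against 0.02 over all genes tested. The 8 include CRU3, which was listed at 0 in wild type 3 and hda15-1 2 beside 17232 to 33132 FPKM in the other libraries. With those listed zeros its log2 fold change was 0.22 ± 4.77 (SE). Another of the 8 had a log2 fold change of only 0.0029 ± 0.40 (SE). The largest of the 8 was that of AT1G03890, at 1.09 ± 0.61 (SE). SESA4, with the smallest p of the list, was at 0.55 ± 0.28 (SE). The gene below 0 was at -0.23 ± 0.38 (SE). The inhibitor SERPIN1 and the chaperone PDIL1-1 had overlapping groups, and WSCP (AT1G72290) and KTI1 were listed at 0.

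Of 6 marker genes of developmental cell death, 1 was tested and it rose, where 0.199% of all genes tested were higher. A single tested gene does not describe the list. SCPL48 (AT3G45010), a serine carboxypeptidase-like gene, was at 0.5798, 0.291 and 0.417 FPKM in the wild-type libraries, against 3.19, 3.23 and 3.41 FPKM in those of hda15-1. The groups lay apart with little spread, and the log2 fold change was 1.59 ± 0.18 (SE; adjusted p = 0.0177, limma). The call was lost without wild type 2, wild type 3, hda15-1 2 or hda15-1 3, with adjusted p-values in limma of 0.115, 0.0963, 0.106 and 0.0889. The other 5 markers reached at most 0.113 FPKM in a library.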

How the data were processed

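For each library the authors deposited a table of FPKM values, per the file headers. Bowtie 0.12.2, Cufflinks, Cuffdiff and build TAIR10 are named in the submitters' processing notes. Their settings, the annotation version and strand use were not given in the sources used here. Of 32884 identifiers, 32538 matched the RefSeq table. Positions, transcripts, promoters and coding sequences were read from the TAIR10.1 genome and its RefSeq annotation through the locus identifier, since the tables give no positions.

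The genotypes were compared in limma 3.58.1 (R 4.3.3) using log2(FPKM + 1), a trended empirical Bayes prior and genotype as the only term. A gene entered if its mean over 6 libraries was 1 FPKM or more. Fold changes on this scale understate those of low genes. P-values were two-sided, with Benjamini-Hochberg adjustment across every gene tested. The script was checked on generated data with known changes. Separate seed lots are not stated in the labels, so p-values may reflect technical spread only, that between these samples.

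The value of 1 fragment per kb was the median product of FPKM and transcript length between 0.06 and 0.15, for transcripts of 800 to 3000 bp. Fragment numbers are estimates from it, and no count test was run. Coding identity came from global alignments in Biopython 1.88, over aligned bases without gaps. All members could be named, with full statistics for those past the threshold or with the smallest p of a group; up to 4 tested genes with the smallest p could be named per partner list, and CRU3, WSCP and KTI1 were named after their values were seen. The members and lists were chosen with earlier results of these data known.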

Additional observations from a re-analysis of the deposited data

How the results depend on the processing

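In 15 alternatives CP1 kept its direction, with log2 fold changes of 3.21 to 4.03, and lost the call only without hda15-1 2. The number of members higher was 1 in the main result, from 0 to 1 with a library left out, and 2 among the libraries numbered 2 and 3, where RD19A joined CP1 (1.58). No member was lower in any. Over all genes, 30 were higher in the main result, 13 with a mean of at least 5 FPKM, 18 with libraries scaled to the same sum, 13 with the replicate block and 73 among the libraries numbered 2 and 3, where 12 were lower against 3. With a library left out, 8 to 31 were higher and 3 to 5 lower. The cause of these shifts was not tested, beyond fewer genes or samples entering some fits.

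Of the 12 members that did not pass, RD19A, AALP, ALP2, GAMMA-VPE and DELTA-VPE kept their sign in every alternative that gave a value, and 7 changed sign in at least 1. CTB2 was -0.0100 with libraries scaled to the same sum, and RD19B was 0.0221 among the libraries numbered 2 and 3. With a library left out, RD19B ran from -0.28 to 0.11, RD19D from -0.0553 to 0.42, CTB3 from -0.36 to 0.0292, AT4G11310 from -0.0560 to 0.32, ALPHA-VPE from -0.42 to 0.30 and BETA-VPE from -0.34 to 0.10.

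Whether same-numbered libraries were prepared together is not stated in the labels. Their deviations from the group means correlated at -0.0790, -0.114 and -0.162 over genes, and no library correlated best with its own number. With 3 libraries per genotype such correlations cannot decide whether the libraries are paired. With the replicate block CP1 passed (adjusted p = 7.71e-03, limma) and SCPL48 did not (0.103). Values under about 0.1 FPKM stand on about 1 fragment, so members at that level cannot be ordered.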
